A study of Oryza sativa Japonica Group with 15 samples.

Results

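A single leaf spray of piperonylic acid (PA) was set against a single leaf spray of acibenzolar-S-methyl (ASM), read out in the roots of rice seedlings 1 day later. The comparison used the 3 libraries of plants sprayed once with PA (PA1x) and the 3 libraries of plants sprayed with ASM, 6 of the 15 libraries in the series. Of 36747 features in the deposited table, 18316 had a mean of at least 5 normalised reads over the 15 libraries and were tested. All plants were of the rice cultivar Kitaake, moved to their growth substrate 5 days after germination and kept at 28 °C under a 12 h light period. PA1x plants received 300 µM PA on day 13 after transplantation, ASM plants received 250 µM ASM on day 13, and mock plants received a mock spray on day 13. The sprays held 0.1% Tween 20, roots were taken on day 14, and each library came from the pooled roots of 4 plants. The other 6 libraries (beta-aminobutyric acid, and PA sprayed on days 7 and 13) entered the filter on low genes and the estimate of the spread between replicates. Their levels are given for some genes, without a test. A level that set ASM apart from PA1x and mock was not thereby particular to ASM. Compound and dose differ together between PA1x and ASM, so a difference between them belongs to the pair of compound and dose. The leaves were sprayed and the roots were sampled, so the values describe an organ that the spray was not aimed at.

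ASM is a synthetic functional analogue of salicylic acid, the hormone behind systemic acquired resistance. In rice it is known to act through the transcription factor WRKY45 and the co-activator NPR1. PA inhibits cinnamate 4-hydroxylase (C4H), the enzyme that follows phenylalanine ammonia-lyase (PAL) at the entry of the phenylpropanoid pathway, from which lignin, flavonoids and part of the plant's salicylic acid derive. Jasmonate is a second defence hormone, whose responses are held back by JAZ repressors until the hormone triggers their breakdown.

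The libraries were of the QuantSeq type, in which a transcript is read near its 3′ end. They held 6576300 to 8364583 reads in PA1x, 6066946 to 6911751 reads in ASM and 7392515 to 9480830 reads in mock. The 3 PA1x libraries were more alike than the 3 ASM libraries. Chi-square per degree of freedom over genes was 3.48 to 5.40 between pairs of PA1x libraries. It was 5.28 between ASM replicates 2 and 3, but 19.3 and 25.9 between ASM replicate 1 and each of them. Root marker genes were abundant in all libraries, with a summed level of 22996.5 to 28160 normalised reads in PA1x, 13146 to 17359 in ASM and 20778 to 24103 in mock. That sum came from RCc3, Lsi1 and Lsi2. RCc2 had almost no reads, and CASP1 was not analysed here. The 7 leaf markers together reached 20.1, 322 and 85.1 normalised reads in PA1x, 123, 59.7 and 24.0 in ASM, and 20.7, 319.5 and 109 in mock.

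PA1x and ASM roots differed in 2877 genes, 15.7% of those tested, and lower levels in PA1x were the commoner kind. In PA1x 979 genes were higher (5.35%) and 1898 were lower (10.4%) than in ASM, by limma on log2(normalised count + 1) with Benjamini-Hochberg adjustment at 0.05. The median difference was 0.80 on the log2 scale among the higher genes, a 1.75-fold change, and -0.92 among the lower genes, a 1.89-fold change. Over all tested genes it was 0.02. The libraries of PA1x and ASM did not overlap in 34.9% of all tested genes, with PA1x higher in 16.0% and lower in 18.9%. At least 2-fold changes were seen for 326 of the higher genes and 826 of the lower genes, and at least 4-fold changes for 25 and 112 of them. The share of genes that differed depended on level: it was 5.65% among genes with a mean of 5 to 20 normalised reads and 30.5% among those of 1000 or more, and the median SE of the difference was 0.40 and 0.13 in these bins. After quantile normalisation the split was 1550 higher and 1702 lower, and the median over all genes was 0.07. Without ASM replicate 3, PA1x replicate 2 or PA1x replicate 3, 546, 604 and 541 genes were higher, against 979 with all libraries. Differences are of log2(value + 1), and fold changes of low genes are understated by the added 1.

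**Figure D1:**
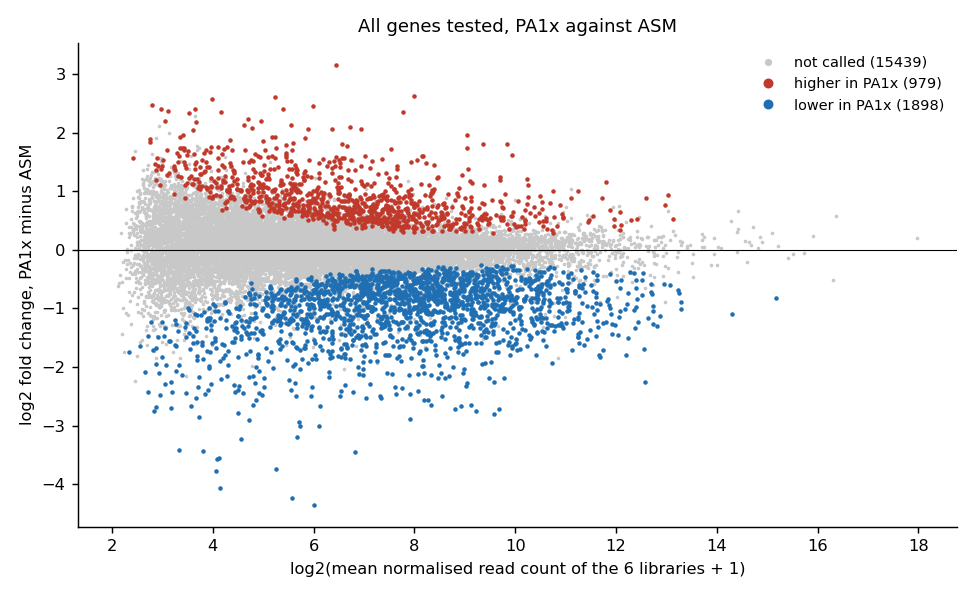
Log2 fold change of PA1x minus ASM (vertical axis) against the log2 of the mean normalised read count of the 6 libraries plus 1 (horizontal axis), 1 point per tested gene. Red points are the 979 genes higher in PA1x, blue points the 1898 genes lower in PA1x and grey points the genes that did not pass the test; the lower genes reach -4.35 and the higher genes 3.17.

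Each group could also be set against mock, with the limit that both such comparisons share the mock libraries and that each shares a group with the direct one. PA1x roots differed from mock in 3.53% of the genes tested, with 73 higher (0.399%) and 573 lower (3.13%). ASM roots differed from mock in 4.53%, with 600 higher (3.28%) and 230 lower (1.26%). These counts moved when single libraries were left out: 646 genes differed between PA1x and mock, against 313, 373 and 371 without PA1x replicate 1, 2 or 3, and 830 between ASM and mock, against 400 without ASM replicate 3. Where a gene is given library by library below, its mock values therefore stand beside the others, and no overlap between these comparisons is drawn. In bulk roots, fewer cells of a type and less RNA per cell cannot be told apart. The roots of a library were pooled, and p-values measure the spread between such pools.

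The salicylate and defence WRKY list was lower in PA1x than in ASM in 14 of its 17 tested members, and no member was higher. The list's median difference was -0.90, against 0.02 over all genes, of which 10.4% were lower. Against mock, 7 of the 17 were lower in PA1x and none was higher, and 6 of the 17 were higher in ASM and none was lower. Over all tested genes, 3.13% were lower and 0.399% higher in PA1x than in mock. In ASM 3.28% were higher and 1.26% lower than in mock. With the 10.4% lower and 5.35% higher between PA1x and ASM, these shares are the background for every list below. Whether a list exceeds its background was not tested. The 3 members that did not pass were WRKY13, WRKY78 and EDS1, which were singled out after their values were seen. WRKY13 differed by -0.06 (95% interval -0.36 to 0.24), WRKY78 by 0.25 (0.01 to 0.50) and EDS1 by -0.22 (-0.60 to 0.16). The list had 18 members, and the other one, WRKY30, was too low to be tested.

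WRKY45 (Os05g0322900), the transcription factor through which ASM acts in rice, had 567, 682 and 709 normalised reads in PA1x, 1711, 1691 and 1644 in ASM, and 906, 845 and 917 in mock. No library of one group reached into another, and the mock libraries lay between the PA1x and the ASM libraries. Between mock and ASM lay beta-aminobutyric acid (1160, 1184 and 1222) and PA sprayed on both days (1149, 1190 and 1328). The difference between PA1x and ASM was -1.37 ± 0.10 (SE), a 2.59-fold lower level in PA1x (adjusted p = 1.82e-07, limma). Against mock, WRKY45 was lower in PA1x by -0.45 (adjusted p = 0.0148) and higher in ASM by 0.92 (adjusted p = 5.71e-05).

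WRKY62 and WRKY76, neighbouring genes whose products are known as repressors of rice defence, were the list members that differed most. WRKY76 (Os09g0417600) had 73.3, 102 and 94.1 normalised reads in PA1x, 563, 491 and 532 in ASM and 109.6, 95.5 and 116 in mock. WRKY62 (Os09g0417800) had 23.4, 48.7 and 28.1 in PA1x, 169, 164 and 152 in ASM and 24.3, 28.7 and 27.4 in mock. For both genes the PA1x and mock libraries overlapped and the ASM libraries stood clear of them. A rise over mock was not particular to ASM. Beta-aminobutyric acid had 289, 310 and 291 for WRKY76, and 62.9, 68.4 and 68.6 for WRKY62. PA sprayed on both days had 352, 326 and 413, and 66.2, 65.8 and 55.0. All of these lay above every mock library and below every ASM library. WRKY76 was 5.88-fold lower in PA1x than in ASM (-2.56 ± 0.13, adjusted p = 1.72e-08, limma) and WRKY62 4.95-fold lower (-2.31 ± 0.21, adjusted p = 1.33e-06). Neither passed the test between PA1x and mock (adjusted p = 0.455 and 0.769).

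WRKY70 (Os05g0474800) had 444, 583 and 507 normalised reads in PA1x, 2028, 1286 and 1729 in ASM and 992, 1182 and 854 in mock, again with mock between. It was 3.25-fold lower in PA1x than in ASM (-1.70 ± 0.21, adjusted p = 3.48e-05, limma), and lower in PA1x than in mock by -0.98 (adjusted p = 0.0163). Among the NPR genes, salicylate receptors and co-activators, NPR1 (Os01g0194300) had 309, 282 and 253 normalised reads in PA1x, 452, 438 and 477 in ASM and 322, 368 and 266 in mock. Its PA1x and mock libraries overlapped, and PA1x was 1.62-fold lower than ASM (-0.70 ± 0.17, adjusted p = 0.0079, limma). NPR3 (Os03g0667100) had 151, 164 and 136 normalised reads in PA1x, 426, 353 and 359 in ASM and 192, 179.7 and 223 in mock, with no overlap between the 3 groups. The difference of -1.33 ± 0.13 was a 2.52-fold lower level in PA1x than in ASM (adjusted p = 2.53e-06, limma).

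**Figure D2:**
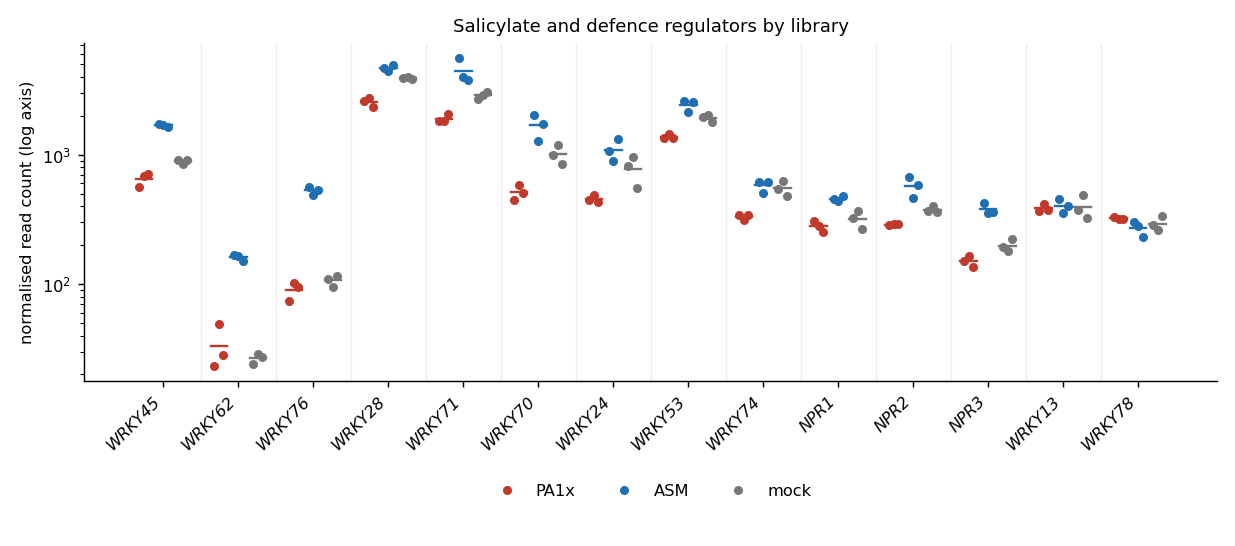
Normalised read count per library (log axis) of 14 salicylate and defence regulators, with PA1x in red, ASM in blue and mock in grey, 3 libraries each, and the group mean as a bar. WRKY45 in PA1x lies between 567 and 709, under every mock and ASM library, while WRKY62 and WRKY76 overlap mock in PA1x and stand apart in ASM; WRKY13 and WRKY78, the last on the right, did not pass the test.

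Genes of jasmonate synthesis and signalling were also mostly lower in PA1x than in ASM. Of 12 tested members 8 were lower and 1 was higher, with a list median of -0.80 against 0.02 over all genes. Against mock, 3 were lower in PA1x and none higher, and 4 were higher in ASM and none lower. The member that was higher was COI1b, a part of the jasmonate receptor, singled out after its values were seen. It had 752, 794 and 848 normalised reads in PA1x, 632, 558 and 455 in ASM, and 689, 595 and 761 in mock. PA1x and ASM did not overlap, and mock reached into both. The difference between PA1x and ASM was 0.55 (adjusted p = 0.00827, limma), and the adjusted p was 0.0559 without ASM replicate 3.

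OPR1 (Os06g0216300), a 12-oxophytodienoate reductase family gene outside the branch that makes jasmonate itself, differed most in the list. It had 101, 144 and 108 normalised reads in PA1x, 929.8, 622 and 778 in ASM, and 284, 274 and 359 in mock. The 3 groups did not overlap, and PA1x was lowest. PA1x was 6.56-fold lower than ASM (-2.71 ± 0.18, adjusted p = 1.07e-07, limma) and lower than mock by -1.38 (adjusted p = 0.000565), while ASM was higher than mock by 1.33 (adjusted p = 0.000384).

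JAR1 (Os05g0586200), which joins jasmonate to isoleucine and so makes the active hormone, had 238, 244 and 243 normalised reads in PA1x, 458, 422 and 422 in ASM, and 209, 258 and 230.4 in mock. PA1x lay within the mock range and ASM above both. PA1x was 1.79-fold lower than ASM (-0.84 ± 0.11, adjusted p = 4.45e-05, limma), and its difference from mock was 0.06 with a 95% interval of -0.17 to 0.29. AOS1 (Os03g0767000), an allene oxide synthase of jasmonate synthesis, had 679, 663 and 579 normalised reads in PA1x, 1155, 1264 and 1629.9 in ASM, and 767, 1062 and 681 in mock. PA1x was 2.09-fold lower than ASM (-1.06 ± 0.21, adjusted p = 0.00175, limma), and the PA1x and ASM libraries did not overlap. RERJ1, a jasmonate-responsive transcription factor, showed the other pattern. It had 1365, 1306 and 1600.5 normalised reads in PA1x, 3021, 2835 and 2828 in ASM, and 2364, 2255 and 2707 in mock. It was lower in PA1x than in ASM by -1.03 ± 0.11 (adjusted p = 8.39e-06, limma) and lower than mock by -0.78 (adjusted p = 0.00107), and ASM did not pass against mock (adjusted p = 0.271).

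The JAZ repressors are themselves switched on by jasmonate. They were lower in PA1x than in ASM in 11 of 12 tested members, against 10.4% of all tested genes, with a median of -1.02. Of these 12, 4 were lower and 1 higher in PA1x than in mock, and 3 were higher in ASM than in mock. JAZ3, the tested member that did not pass, differed by 0.06 (95% interval -0.13 to 0.25) and was singled out after its values were seen. JAZ13 (Os10g0391400) had 773, 762 and 795 normalised reads in PA1x, 1875, 1703 and 2039 in ASM, and 1257, 1698 and 1230.1 in mock. Its PA1x libraries lay below all others, and the level was 2.40-fold lower than in ASM (-1.26 ± 0.13, adjusted p = 6.42e-06, limma). JAZ6 had 581, 647 and 628 normalised reads in PA1x, 1612, 1167 and 1519.7 in ASM, and 931, 1071 and 906 in mock, a difference of -1.20 ± 0.12 between PA1x and ASM (adjusted p = 3.61e-06, limma). JAZ6 was lower in PA1x than in mock (adjusted p = 0.00549) and higher in ASM than in mock (adjusted p = 0.0133). JAZ5 and JAZ9 were lower in PA1x than in ASM by -1.54 ± 0.32 and -1.15 ± 0.24 (adjusted p = 0.00291 and 0.00313, limma), and JAZ9 was lower in PA1x than in mock too (-0.94, adjusted p = 0.0411). JAZ11 was lower by -1.23 ± 0.31 (adjusted p = 0.0132), and its adjusted p was 0.0789 without ASM replicate 3 and 0.0640 without PA1x replicate 3.

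The general phenylpropanoid list, the pathway on which PA acts, was lower in PA1x than in ASM in 8 of 14 tested members and higher in none, with a median of -1.16 against 0.02 over all genes. The 8 were PAL2, PAL3, PAL4, PAL6, PAL7, C4H3, C4H4 and 4CL5. Against mock, 5 members were lower in PA1x and none higher, and 5 were higher in ASM and none lower. PAL and C4H genes have near copies of one another, and reads could be shared between them. The list covered 16 genes, and C4H2, with no read in any of the PA1x, ASM or mock libraries, was not tested.

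PAL1 to PAL4 carry identifiers close to each other on chromosome 2, and they did not behave alike. PAL1 (Os02g0626100) had 37228, 40258 and 39182 normalised reads in PA1x, 39466, 36465 and 35785 in ASM, and 34416, 33536 and 34550.2 in mock. PA1x and ASM overlapped, and the difference of 0.06 had a 95% interval of -0.24 to 0.37, which leaves out the changes seen for its neighbours. PAL2 (Os02g0626400) had 4290.4, 4787 and 4247 normalised reads in PA1x, 9128, 8155 and 10408 in ASM, and 5583, 7367 and 4898 in mock. It was 2.07-fold lower in PA1x than in ASM (-1.05 ± 0.17, adjusted p = 0.000327, limma).

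PAL3 (Os02g0626600) had 107, 124 and 85.1 normalised reads in PA1x, 362, 322 and 459 in ASM, and 199.5, 210.1 and 156 in mock. PAL4 (Os02g0627100) had 1468, 1481 and 1372 in PA1x, 4952, 4665 and 5786 in ASM, and 2491, 2920.0 and 2121 in mock. In both genes every PA1x library was below every mock library, and every ASM library above. PAL3 was 3.59-fold lower in PA1x than in ASM (-1.84 ± 0.20, adjusted p = 6.17e-06, limma) and PAL4 3.55-fold lower (-1.83 ± 0.15, adjusted p = 7.83e-07). Both were lower in PA1x than in mock (adjusted p = 0.0229 and 0.00749) and higher in ASM than in mock (adjusted p = 0.00652 and 0.000959).

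On other chromosomes, PAL6 was lower in PA1x than in ASM by -1.40 ± 0.15 (adjusted p = 5.22e-06, limma) and PAL7 by -1.27 ± 0.30 (adjusted p = 0.00806). PAL6 was also lower in PA1x than in mock (-0.75, adjusted p = 0.00729) and higher in ASM than in mock (0.65, adjusted p = 0.0161). PAL5 had 621, 645 and 657 normalised reads in PA1x, 628, 553 and 432 in ASM, and 488, 367 and 606 in mock. PA1x and ASM overlapped in PAL5, and their difference was 0.27 (95% interval -0.08 to 0.62).

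Of the C4H genes, which encode the enzyme that PA inhibits, 2 of the 3 tested were lower in PA1x. C4H4 (Os02g0467600) had 259, 283 and 233 normalised reads in PA1x, 696, 1012 and 1415 in ASM, and 596, 888 and 346 in mock. PA1x lay below every ASM and mock library, and the difference from ASM was -1.95 ± 0.37, a 3.87-fold lower level (adjusted p = 0.00141, limma). C4H1 (Os05g0320700) had 1502, 1703 and 1326 normalised reads in PA1x, 2318, 1923 and 2565 in ASM, and 1591, 2516 and 1288 in mock. PA1x and ASM did not overlap, but the difference of -0.58 had a 95% interval of -1.17 to 0.00 and an adjusted p of 0.182 (limma). With only the 6 PA1x and ASM libraries in the fit, that adjusted p was 0.0128. C4H3 had 3.22, 1.48 and 0.905 normalised reads in PA1x, where only the first library was above the limit of 3 reads. It had 13.9, 8.66 and 15.3 in ASM and 6.29, 11.3 and 6.53 in mock (adjusted p = 0.00139 between PA1x and ASM, limma). Further along, 4CL5, a 4-coumarate-CoA ligase, had 777, 778 and 731 normalised reads in PA1x, 1884, 2119 and 2737 in ASM and 1386, 1914 and 1047 in mock. It was 2.91-fold lower in PA1x than in ASM (-1.54 ± 0.23, adjusted p = 0.000198, limma).

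**Figure D3:**
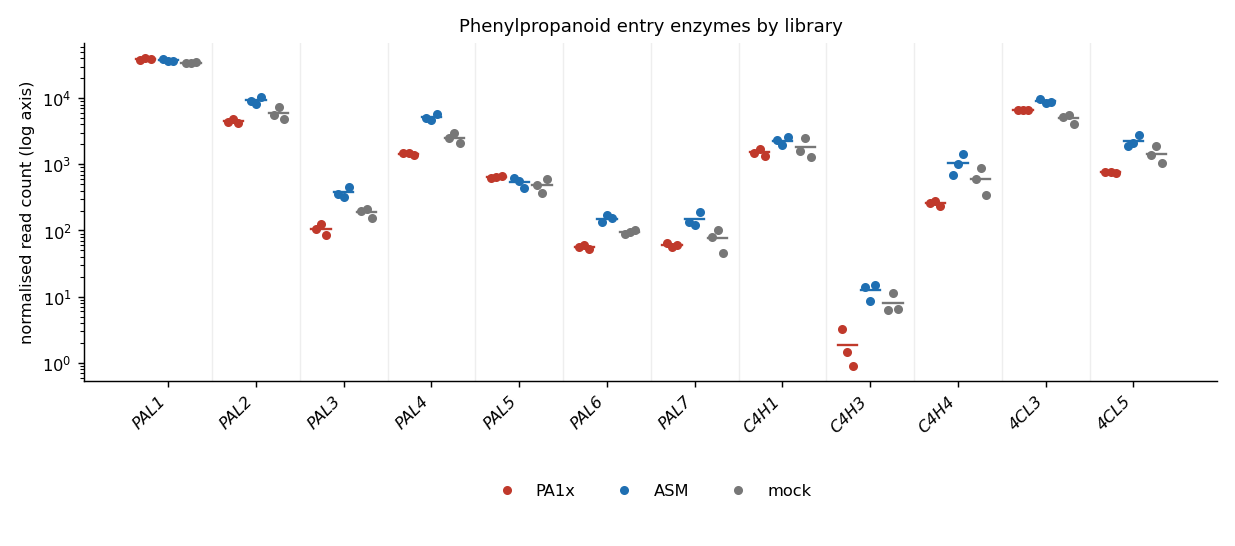
Normalised read count per library (log axis) of PAL, C4H and 4CL genes, with PA1x in red, ASM in blue and mock in grey, 3 libraries each, and the group mean as a bar. PAL1 lies between 35785 and 40258 in PA1x and ASM, while PAL3 and PAL4 are lower in every PA1x library than in any mock or ASM library.

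Of 7 tested genes of the monolignol branch, which leads to lignin, 1 was lower and none higher, against 10.4% lower among all tested genes. The list median was 0.00, and ran from -0.0610 without ASM replicate 1 to 0.0186 without PA1x replicate 3. The lower gene was HCT2, a hydroxycinnamoyl transferase, at 524, 539 and 541 normalised reads in PA1x, 918, 838 and 989 in ASM, and 648, 928 and 622 in mock (-0.77 ± 0.16, adjusted p = 0.00255, limma). HCT2 overlapped between ASM and mock and passed in neither group against mock. Of 9 cellulose synthases, enzymes of the cell wall outside this pathway, CESA7, known for secondary walls, was higher (0.72 ± 0.19, adjusted p = 0.0136) and CESA6 lower (-0.47 ± 0.12, adjusted p = 0.0163), with a list median of 0.21. That median was 0.0308 without ASM replicate 3 and 0.0627 without PA1x replicate 3. CESA7 was also higher in PA1x than in mock (0.71, adjusted p = 0.0455). Between PA1x and ASM, CESA7 missed the threshold without ASM replicate 3, PA1x replicate 2 or PA1x replicate 3 (adjusted p up to 0.0833). CESA6 missed it without ASM replicate 2 or 3 or PA1x replicate 2, and after quantile normalisation (adjusted p = 0.142).

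Phytoalexin and pathogenesis-related genes varied widely between libraries of one group, and most of them did not pass the test. Of 14 diterpenoid phytoalexin genes 1 was higher and none lower, with a median of -0.61. The median was -1.04 without ASM replicate 1, -0.23 without ASM replicate 3 and -0.30 without PA1x replicate 3. Their summed level was 4657, 4542 and 2186 normalised reads in PA1x, 2323, 4689 and 7924 in ASM, and 5497, 6778 and 2212 in mock, so the groups overlapped and libraries of 1 group differed by over 2-fold. CPS4, the copalyl diphosphate synthase of the momilactone cluster, singled out after its values were seen, had 828, 714 and 333 normalised reads in PA1x, 382, 862 and 1531 in ASM, and 855, 1091 and 367 in mock (95% interval of the difference between PA1x and ASM -1.84 to 0.94). TGAP1, a regulator of these clusters, was higher in PA1x by 0.45 ± 0.14 (adjusted p = 0.0311, limma), and missed the threshold without ASM replicate 1 or any one PA1x replicate (adjusted p up to 0.132). Of 3 tested flavonoid genes 1 was lower and none higher, with a median of -0.14. Over 3 genes the median was unsteady: it ran from -0.94 without ASM replicate 1 to -0.0885 without PA1x replicate 3, and was -0.41 by DESeq2. That gene, NOMT, which makes the flavonoid phytoalexin sakuranetin, had 0.806, 2.95 and 0.905 normalised reads in PA1x, 3.98, 25.0 and 39.3 in ASM, and 7.19, 9.55 and 3.92 in mock (adjusted p = 0.0174 between PA1x and ASM, limma). In PA1x replicates 1 and 3 NOMT lay under the limit of 3 reads, which is 2.42 and 2.72 normalised reads there. Its adjusted p reached 0.102 when ASM replicate 3 was left out, and it also missed the threshold without ASM replicate 2, PA1x replicate 1 or PA1x replicate 3.

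Of 13 tested pathogenesis-related genes, 2 were lower and 1 was higher in PA1x than in ASM, against 10.4% and 5.35% of all tested genes. The list median was -0.23, and ran from -0.45 without ASM replicate 1 to -0.0410 without PA1x replicate 3. PR1a (Os07g0129200), a common marker of salicylate responses, had 3621, 3989 and 2327 normalised reads in PA1x, 5292, 7882 and 10271 in ASM, and 3275, 4749 and 2405 in mock. The PA1x libraries lay within or near the mock range and below all ASM libraries. PR1a was 2.34-fold lower in PA1x than in ASM (-1.22 ± 0.36, adjusted p = 0.0277, limma), and its adjusted p was 0.0755 without ASM replicate 2, 0.131 without ASM replicate 3, 0.0538 without PA1x replicate 1 and 0.137 without PA1x replicate 3. The other gene that was lower was the chitinase gene Cht11 (-1.56 ± 0.40, adjusted p = 0.0121), which missed the threshold without ASM replicate 1 or PA1x replicate 3 (adjusted p up to 0.0657). The gene that was higher was Gns1, a beta-glucanase gene, with 1007, 1277 and 1161 normalised reads in PA1x, 377, 503 and 659 in ASM, and 588, 801 and 419.6 in mock. Gns1 was 2.28-fold higher in PA1x than in ASM (1.19 ± 0.33, adjusted p = 0.0222, limma), and missed the threshold without ASM replicate 1, ASM replicate 2, PA1x replicate 2 or PA1x replicate 3 (adjusted p up to 0.0857).

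In the ethylene and abscisic acid lists, which hold genes of synthesis, breakdown and signalling, the genes that passed the test were lower in PA1x than in ASM. Of 12 tested ethylene genes 4 were lower and none higher, with a median of -0.31. Of all tested genes 10.4% were lower. ACS1 (Os03g0727600), a synthase of the ethylene precursor, had 4.03, 5.16 and 8.15 normalised reads in PA1x, 52.7, 17.3 and 24.0 in ASM, and 37.7, 34.7 and 37.8 in mock. It was lowest in PA1x, 4.43-fold lower than in ASM (-2.15 ± 0.33, adjusted p = 0.000196, limma) and 5.75-fold lower than in mock (adjusted p = 0.000565). ASM replicates 2 and 3 also lay below every mock library, while ASM did not pass against mock (adjusted p = 0.639). PA sprayed on both days, at 25.5, 17.0 and 21.5, lay below every mock library too. The oxidase gene ACO1, of the last step, showed another arrangement. ACO1 had 16.9, 33.2 and 22.6 normalised reads in PA1x, 70.6, 104 and 105 in ASM, and 14.4, 55.6 and 30.7 in mock (-1.93 ± 0.40 between PA1x and ASM, adjusted p = 0.00297, limma). It was high in ASM, where it passed against mock (adjusted p = 0.0307). EIL1, a transcription factor of ethylene signalling, was lower by -0.38 ± 0.11 (adjusted p = 0.0273) and missed the threshold without ASM replicate 1 or 3 or PA1x replicate 1 or 3, without the filter on low genes and after quantile normalisation (adjusted p up to 0.222).

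Of 5 tested abscisic acid genes 3 were lower in PA1x than in ASM, with a median of -0.89. NCED4, of the rate-limiting step of synthesis, had 134, 128 and 198 normalised reads in PA1x, 792, 410.1 and 371 in ASM, and 244, 270.0 and 314 in mock (-1.71 ± 0.25, adjusted p = 0.000115, limma). NCED4 was lowest in PA1x and highest in ASM, and no library of one group reached into another, but neither group passed against mock (adjusted p = 0.0684 for PA1x and 0.0628 for ASM). NCED5 had 12.1, 10.3 and 13.6 in PA1x, 28.8, 25.0 and 62.2 in ASM, and 5.39, 14.8 and 13.1 in mock (-1.50 ± 0.40, adjusted p = 0.0153, limma), and its adjusted p was 0.0970 without ASM replicate 3 and 0.0592 without PA1x replicate 2. ABA8ox1, an enzyme of abscisic acid breakdown, had 221, 263 and 288 normalised reads in PA1x, 563, 417 and 456 in ASM, and 478, 382 and 546 in mock. It was low in PA1x alone (-0.89 ± 0.15 against ASM, adjusted p = 0.000524, limma; -0.86 against mock, adjusted p = 0.00374).

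Among 10 tested gibberellin genes, GA20ox1, of synthesis, was higher in PA1x than in ASM (1.29 ± 0.40, adjusted p = 0.0361, limma) and GA2ox3, of inactivation, was lower (-0.61 ± 0.17, adjusted p = 0.0247). The list's median was -0.12, and it ran from -0.20 without ASM replicate 2 to -0.0363 without ASM replicate 1. Both genes missed the threshold when any library other than ASM replicate 1 was left out (adjusted p up to 0.180 for GA20ox1 and 0.139 for GA2ox3), and GA2ox3 also after quantile normalisation. In the sugar starvation and anaerobic list 2 of 9 were lower and none higher, with a median of 0.11, which ran from -0.0213 without PA1x replicate 1 to 0.19 without PA1x replicate 2 or 3. RAmy3D, an alpha-amylase induced by sugar starvation, had 8.06, 6.64 and 10.9 normalised reads in PA1x, 69.6, 37.5 and 51.3 in ASM, and 15.3, 9.55 and 17.6 in mock. It was 5.58-fold lower in PA1x than in ASM (-2.48 ± 0.33, adjusted p = 5.83e-05, limma), and PA1x did not pass against mock (adjusted p = 0.450). CIPK15, a kinase upstream of such amylases, was lower by -0.87 ± 0.14 (adjusted p = 0.000319).

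Among genes of water, iron and nitrogen handling, those that passed the test were higher in PA1x than in ASM. They were 8 of 13 aquaporins but only 4 of 18 iron genes and 2 of 13 nitrogen genes. Over all tested genes 5.35% were higher. With 1 library left out the iron and nitrogen counts each fell to as few as 1. Of 13 aquaporins, the channels for water in the plasma membrane (PIP) and the tonoplast (TIP), 8 were higher and none lower, with a median of 0.52 against 0.02 over all genes. None of the 13 passed between either group and mock. TIP2;2 had 4098, 4595 and 5151 normalised reads in PA1x, 3487, 2810.1 and 2404 in ASM, and 3988, 3356 and 4141 in mock (0.68 ± 0.13, adjusted p = 0.00204, limma). TIP1;1 had 4833, 5543 and 5481 in PA1x, 3809, 3323 and 2975 in ASM, and 3871, 4222 and 4374 in mock (0.65 ± 0.11, adjusted p = 0.000673, limma). In both genes the PA1x and ASM libraries did not overlap. PIP1;1, PIP2;2 and PIP2;6 were higher by 0.58, 0.56 and 0.74 (adjusted p = 0.00453, 0.00562 and 0.0254), and PIP2;6 missed the threshold without ASM replicate 2 or 3 or PA1x replicate 2 or 3 (adjusted p up to 0.130). The number of aquaporins that were higher was 5 without PA1x replicate 3 and 6 to 8 without any other library.

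All 3 tested root markers were higher in PA1x too, with a median of 0.89. RCc3, a root-specific gene, had 9565, 10045 and 13506 normalised reads in PA1x, 7787, 5299.6 and 4391 in ASM, and 10576, 6507 and 12358 in mock (0.95 ± 0.24, adjusted p = 0.0132, limma). Lsi1 and Lsi2, the silicon influx and efflux transporters of the exodermis and endodermis, were higher in PA1x as well. Lsi1 had 7320.2, 8409 and 8327 normalised reads in PA1x, 4732, 4121 and 4159 in ASM, and 7057, 7274 and 6274 in mock (0.89 ± 0.14, adjusted p = 0.000234, limma). Lsi2 had 6111, 6879 and 6327 in PA1x, 4840.0, 3999 and 4596 in ASM, and 6098, 6997 and 5470.5 in mock (0.53 ± 0.12, adjusted p = 0.00705, limma). ASM was lower than mock by -0.66 for Lsi1 and -0.46 for Lsi2 (adjusted p = 0.0102 and 0.0429). Low Lsi1 was not particular to ASM: PA sprayed on both days had 5202, 3778 and 5465 normalised reads, and beta-aminobutyric acid 5553, 5386 and 4932, all below every mock library. For Lsi2 they had 5124, 4300 and 4938, and 5106, 5660 and 4905, and 1 beta-aminobutyric acid library reached into mock. RCc3 missed the threshold without ASM replicate 3 or PA1x replicate 3 (adjusted p up to 0.0799). The part of these root markers in the aquaporin result was not tested.

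Of 18 iron genes 4 were higher in PA1x than in ASM and none lower, with a median of 0.31, which was 0.62 without ASM replicate 1 and 0.13 without ASM replicate 2. IRO3 (Os03g0379300), a repressor of iron deficiency responses, had 146, 157 and 169 normalised reads in PA1x, 72.6, 52.0 and 40.4 in ASM, and 119.5, 129 and 104 in mock. Every PA1x library was above every ASM library, and the level was 2.90-fold higher (1.54 ± 0.20, adjusted p = 4.12e-05, limma). ASM lay below every mock library. So did beta-aminobutyric acid (66.2, 64.3 and 91.8) and PA sprayed on both days (81.5, 65.8 and 88.6). DMAS1, of the synthesis of the iron chelator deoxymugineic acid, had 1406, 1359 and 1363 in PA1x, 1187, 881 and 871 in ASM, and 1250.1, 1236 and 1246 in mock (0.50 ± 0.12, adjusted p = 0.00933, limma; 0.0566 without ASM replicate 3). NRAMP1 and IRO2 were higher by 0.63 and 0.51 (adjusted p = 0.0299 and 0.0484) and missed the threshold when any library other than ASM replicate 1 was left out (adjusted p up to 0.144 and 0.200). IRO2 also missed it under 5 of the settings that kept all libraries. The name IRO2 is paired here with Os01g0952800, whereas the RefSeq table places a gene of that name on another chromosome. NRAMP1 was lower in ASM than in mock (-0.84, adjusted p = 0.0158).

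Iron genes separated the ASM libraries from each other. IRT1 (Os03g0667500), the main ferrous iron transporter, had 8475, 11297 and 9856 normalised reads in PA1x, 11709, 4592 and 4404 in ASM, and 12167, 10346 and 9909 in mock. YSL15, the transporter of the iron chelate, singled out after its values were seen, had 9273, 10333 and 9771 in PA1x, 12459.6, 5789.6 and 6496 in ASM, and 13064, 11855 and 10759.5 in mock. In both genes ASM replicate 1 lay with mock and the other two ASM libraries far below. IRT1 did not pass (0.66, 95% interval -0.00 to 1.33, adjusted p = 0.182, limma), and without ASM replicate 1 its difference was 1.12 (adjusted p = 0.00467). The summed level of the 18 iron genes was 108858 to 119722 normalised reads in PA1x, 139898 in ASM replicate 1, and 72715.5 and 81576 in ASM replicates 2 and 3. Without ASM replicate 1, 8 iron genes were higher in PA1x, without ASM replicate 3 only 1 was, and without any other of the 6 libraries 2 were.

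Of 13 tested nitrogen genes 2 were higher in PA1x than in ASM and none lower, with a median of 0.30, which was 0.0941 without ASM replicate 2 and 0.13 without ASM replicate 3. NIA1, a nitrate reductase gene, had 755, 783 and 718 normalised reads in PA1x, 524, 274 and 249 in ASM, and 803, 788 and 769 in mock. PA1x and mock overlapped and ASM stood below both, 2.28-fold under PA1x (1.19 ± 0.22, adjusted p = 0.000966, limma). Beta-aminobutyric acid (474, 469 and 525) and PA sprayed on both days (538, 356 and 560) also lay below every mock library. NiR, the nitrite reductase gene of the next step, was higher by 0.54 ± 0.17 (adjusted p = 0.0385) and missed the threshold without the filter on low genes or without any library other than ASM replicate 1 (adjusted p up to 0.160). AS1, an asparagine synthetase gene, had 147, 167 and 178 normalised reads in PA1x, 305, 224 and 307 in ASM, and 293.9, 391.6 and 242 in mock. PA1x lay below every ASM and mock library, and ASM and mock overlapped. Low AS1 was not particular to PA1x: beta-aminobutyric acid had 134, 209 and 193 normalised reads, also below every ASM and mock library. PA sprayed on both days had 261, 69.0 and 156, and its first library reached into ASM and mock. AS1 did not pass between PA1x and ASM (-0.75, 95% interval -1.46 to -0.04, adjusted p = 0.154, limma), and with only the 6 libraries in the fit its adjusted p was 0.00484.

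Of 9 tested phosphate genes 2 were lower and 1 was higher in PA1x than in ASM, against 10.4% and 5.35% of all tested genes. The list median was -0.03, and ran from -0.105 without PA1x replicate 1 to 0.0306 without PA1x replicate 3. PT8 (Os10g0444700), a phosphate transporter, had 2301, 2565 and 2437 normalised reads in PA1x, 5977, 4535 and 5135 in ASM, and 3267, 3402 and 3622 in mock. PHO2 (Os05g0557700), which limits phosphate uptake by marking transporters for breakdown, had 2265, 2097 and 1964 in PA1x, 1089.9, 1259 and 1299 in ASM, and 1780.3, 1575 and 1539 in mock. In both genes mock lay between PA1x and ASM without overlap, and of these groups PT8 was lowest and PHO2 highest in PA1x. High PHO2 was not particular to PA1x: PA sprayed on both days had 1887, 2408 and 2140 normalised reads, above every mock library. Beta-aminobutyric acid had 1486, 1363 and 1306 for PHO2, below every mock library. PT8 was 2.13-fold lower (-1.09 ± 0.13, adjusted p = 1.55e-05, limma) and PHO2 1.74-fold higher (0.80 ± 0.11, adjusted p = 0.000103) in PA1x than in ASM. PT2 was lower by -0.98 ± 0.29 (adjusted p = 0.0285) and missed the threshold after quantile normalisation and without ASM replicate 1, PA1x replicate 1 or PA1x replicate 3 (adjusted p up to 0.122).

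**Figure D4:**
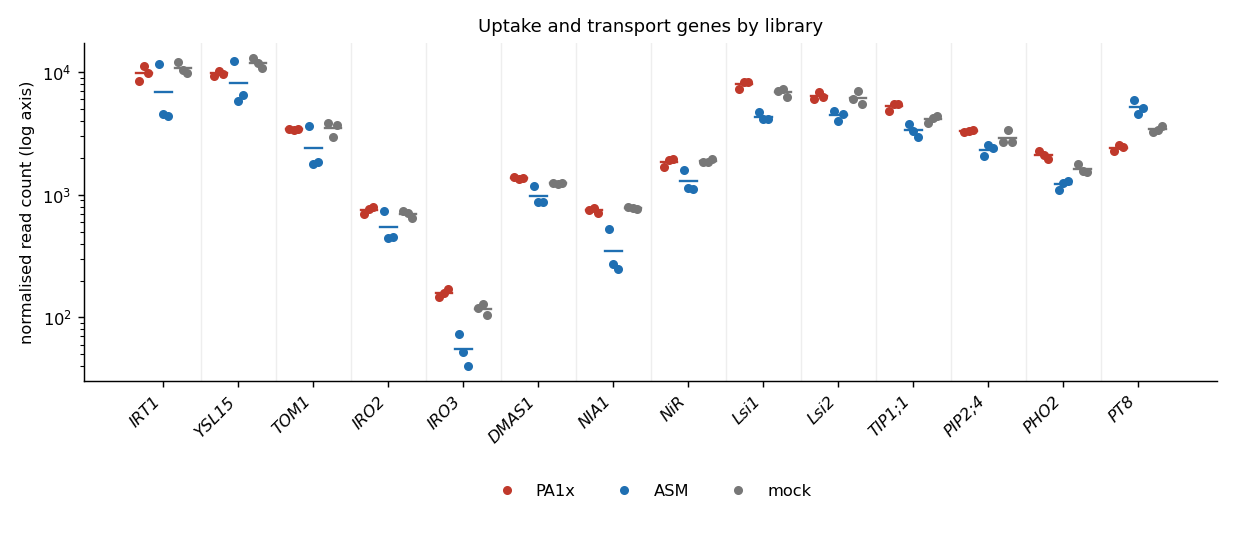
Normalised read count per library (log axis) of iron, nitrogen, silicon, water and phosphate genes, with PA1x in red, ASM in blue and mock in grey, 3 libraries each, and the group mean as a bar. ASM replicate 1, the left blue point, lies at 11709 for IRT1 against 4592 and 4404 in the other ASM libraries; PT8 and PHO2 have mock between PA1x and ASM.

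The genes with the largest differences carry identifiers for which no name was used here, and they differed in where mock lay. Among those with a mean of at least 20 and no overlap, the lowest was Os10g0515900, with 5.64, 5.16 and 3.62 normalised reads in PA1x, 81.5, 166 and 117 in ASM, and 3.59, 3.47 and 1.31 in mock (-4.35 ± 0.61, adjusted p = 9.44e-05, limma). Os04g0581100 and Os04g0168400 were alike in that PA1x differed little from mock. Os04g0581100 had 20.9, 22.1 and 10.9 in PA1x, 134, 212 and 269 in ASM and 15.3, 27.8 and 16.3 in mock, and Os04g0168400 was lower in PA1x than in ASM by -3.24 ± 0.69 (adjusted p = 0.00335). In these 3 genes ASM was the group that passed against mock, at 32.5, 9.86 and 9.18-fold higher.

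Os01g0882000 and Os05g0449200 instead lay below mock in PA1x and above mock in ASM. Os01g0882000 had 4.83, 2.95 and 5.43 normalised reads in PA1x, 71.6, 64.5 and 73.1 in ASM, and 20.7, 21.7 and 39.2 in mock (-3.74 ± 0.35 between PA1x and ASM, adjusted p = 2.35e-06, limma). Os05g0449200 had 11.3, 6.64 and 9.05 in PA1x, 114, 79.9 and 77.5 in ASM, and 26.1, 18.2 and 32.6 in mock (-3.20 ± 0.31, adjusted p = 2.68e-06, limma). Both passed against mock in each direction. Os12g0242100 was lower in PA1x than in ASM by -4.23 ± 0.45 (adjusted p = 6.01e-06), and its PA1x level did not pass against mock (adjusted p = 0.175), while ASM was higher than mock (2.96, adjusted p = 0.00104).

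The highest was Os03g0725200, with 151, 155 and 163 normalised reads in PA1x, 15.9, 17.3 and 16.4 in ASM, and 74.6, 86.8 and 53.5 in mock (3.17 ± 0.22, adjusted p = 1.61e-07, limma). PA1x was 2.21-fold higher than mock (adjusted p = 0.00729) and ASM 4.07-fold lower than mock (adjusted p = 7.7e-05). Os04g0649500, Os12g0139400, Os12g0594950, Os11g0437600 and Os03g0609500 followed, at 6.23, 6.11, 5.53, 5.33 and 5.10-fold higher in PA1x than in ASM. In each of these 5 the mean of mock lay between those of PA1x and ASM. Of them, Os03g0609500 passed in PA1x against mock (adjusted p = 0.0208), and Os11g0437600 was the one that did not pass in ASM against mock (adjusted p = 0.0691).

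None of 8 antioxidant genes and 6 reference genes passed, with medians of 0.00 and 0.09. None of 5 tested leaf markers passed either. Their median was 0.45, but it ran from -0.65 without PA1x replicate 2 to 1.79 without PA1x replicate 1, and was 1.29 by DESeq2. Of 9 tested clock genes, PRR95 was higher (0.76 ± 0.23, adjusted p = 0.0299) and GI lower (-0.31 ± 0.09, adjusted p = 0.0299), with a list median of -0.10, which was -0.35 without PA1x replicate 3 and -0.24 without ASM replicate 3. PRR95 missed the threshold without ASM replicate 2 or 3 or PA1x replicate 2 or 3 (adjusted p up to 0.152), and GI without any library other than PA1x replicate 3, without the filter and after quantile normalisation (adjusted p up to 0.556). Over all 22 lists, 221 of 251 genes were tested, and 24 were higher, 59 lower and 138 neither.

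**Figure D5:**
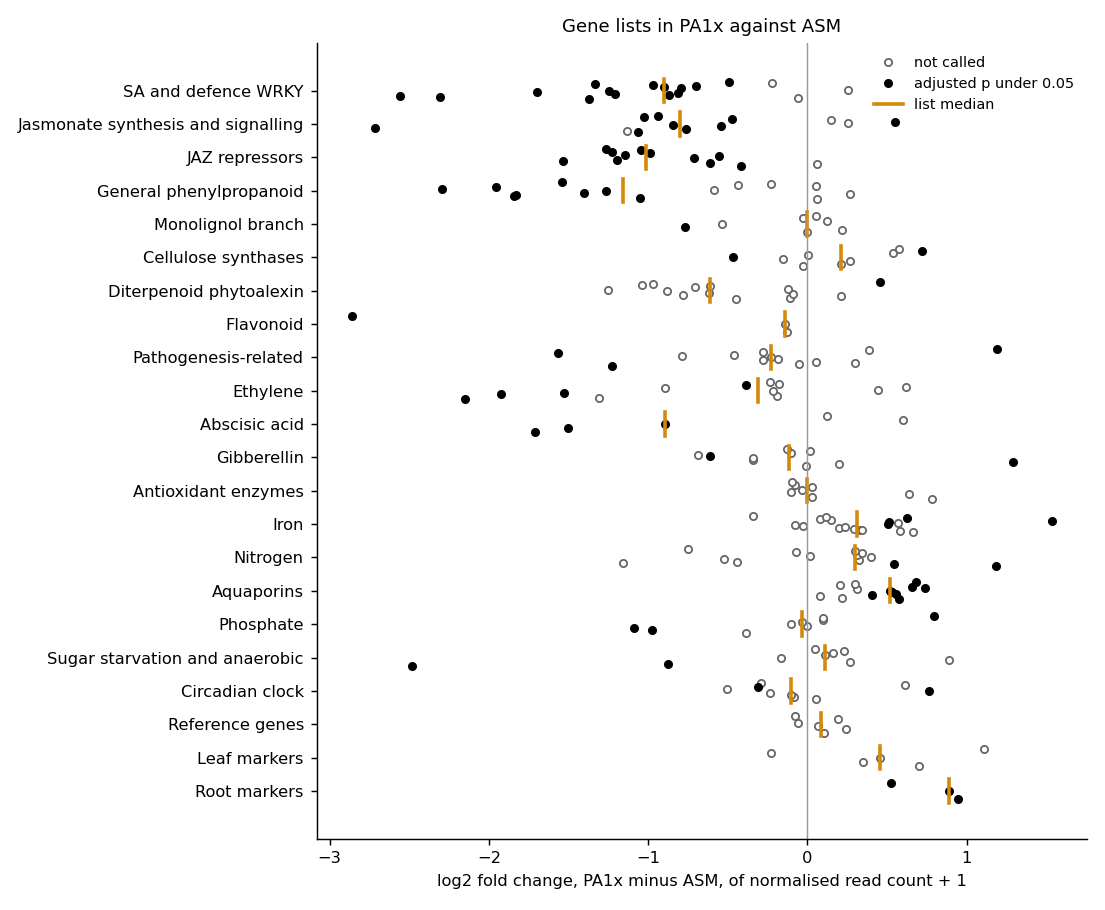
Log2 fold change of PA1x minus ASM (horizontal axis) of every tested list gene, by list (rows), with filled points past an adjusted p of 0.05, open points not past it and an orange bar at the list median. The salicylate, jasmonate, JAZ and general phenylpropanoid lists have medians of -0.90, -0.80, -1.02 and -1.16, and the aquaporin list has a median of 0.52.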

How the data were processed

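The values the authors deposited are a signal, judged from their steps and the submitters' processing notes: read counts per gene divided by 1 size factor per library, as DESeq2 does. Those notes name DESeq2, STAR 2.6.1d, Trimmomatic 0.38 and FastQC 0.11.8. Strand setting, build and annotation were not given in the sources used here, and reads of a gene and its antisense or overlapping partner may be mixed. WRKY, PR10 and chitinase genes have near copies that may share reads too. Whole reads were recovered from the value steps (100% of values whole within 0.1), giving 4130194 to 9480830 reads per library. The floor of 3 reads is 2.21 to 3.27 normalised reads in the PA1x and ASM libraries, and covers counting error only, as reads carry no molecular identifiers. Libraries labelled BTH are the acibenzolar ones, called ASM here.

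Limma 3.58.1 (R 4.3.3, two-sided, with a trend) was fitted to log2(value + 1) of 18316 genes (mean of 5 or more) over all 15 libraries at once, with group as the term and Benjamini-Hochberg adjustment over all of them at 0.05. Intervals are 95% intervals of that fit. The fit was tested on simulated data, and no result given here rests on that test. Other settings were pseudocounts of 0.5 and 4, no filter, a mean of at least 20, only the 6 libraries, the replicate number as a block, TMM factors, quantile normalisation, edgeR 4.0.16 and DESeq2 1.42.0 on the recovered reads, and each of the 6 libraries left out. On recovered reads edgeR called 3027 genes.

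Named genes are the 6 highest and 6 lowest past the threshold without overlap between groups and with a mean of 20 or more, up to 5 called genes per list, and WRKY45, WRKY62, WRKY76, NPR1, PR1a, OPR1, JAR1, AS1, ACS1, IRT1 and every PAL or C4H member. The comparison, the lists and the rule were chosen with earlier results of these data known. The file gives identifiers without names. Names pair RAP identifiers from general knowledge: 167 of 251 have a namesake in the RefSeq table of assembly ASM3414082v1, 161 of them on the same chromosome, and 84 have none, among them WRKY45, MYC2, PR1a and all PAL and C4H genes. The result of 1 gene is left out of the text.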

Additional observations from a re-analysis of the deposited data

How the results depend on the processing

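The count of genes differing between PA1x and ASM was 2877, and ran from 2617 to 3252 under the settings that kept all 6 libraries. Of these, quantile normalisation gave 1550 higher and 1702 lower genes, against 979 and 1898, so 47.7% of calls were higher in place of 34.0%. With 1 library left out the count ran from 2025 to 2783, with 541 to 1092 higher and 1479 to 1695 lower genes. Left-out libraries gave 313 to 704 genes for PA1x against mock and 400 to 879 for ASM against mock. DESeq2 and edgeR gave 2866 and 3027 genes for PA1x against ASM. With the replicate number as a block, 2988 genes passed, of which 2771 also passed without it. Same-numbered PA1x and ASM libraries gave no sign of pairing by number: they deviated from their group means with correlations of -0.214, -0.045 and -0.25. Between differently numbered libraries the correlations ran from -0.0457 to 0.249. The highest were 0.249 for PA1x replicate 3 with ASM replicate 1 and 0.177 for PA1x replicate 1 with ASM replicate 3. Whether libraries were paired in another order was not tested. Other pairs of groups, mock among them, were not tested. In CPS4, replicate 3 was the lowest library in PA1x (333), mock (367), beta-aminobutyric acid (234) and PA sprayed on both days (389). In ASM it was the highest (1531). How far swings go with the replicate number across these groups was not tested. Of 75 named genes past the threshold, 53 stayed past it under all 16 settings, 22 missed it under at least 1, and none changed sign. Among named genes that had not passed, 3 changed sign: WRKY13 was at 0.0972 after quantile normalisation and between -0.15 and 0.0220 with 1 library left out, JAZ3 between -0.00273 and 0.14, and CPS4 between -0.98 and 0.0206. The cause of these changes was not tested. The median SE was 0.40 for genes with a mean of 5 to 20, against 0.13 at 1000 or more, and the part of depth in it was not tested. Medians of several lists moved by over 1.5 times with 1 library left out, and those values stand beside the lists.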
